A study of Mus musculus with 21 samples.

Results

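The RBBP7-alone regions were the places in embryonic mouse ganglionic eminence chromatin where the peak list of RBBP7 held a peak and the lists of 5 other subunits of the NuRD complex held none. The peaks of the 6 lists were merged where they overlapped by at least 1 bp on chromosomes 1 to 19 and X, and merged regions made only of RBBP7 peaks were kept. This gave 4867 RBBP7-alone regions of 38820 merged regions, of which 36.5% held an RBBP7 peak. They made up 34.4% of the 14166 merged regions with an RBBP7 peak (Wilson 95% interval 33.6 to 35.1%), and each held exactly 1 RBBP7 peak. The other 9299 regions with an RBBP7 peak also held a peak of at least 1 other list and are called RBBP7-shared. The regions were chosen by the measured peak calls of the 6 lists, so the peak values of the RBBP7 list are given as a description.

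ChIP-seq was done on ganglionic eminences, the basal ganglia primordia, of CD1 mice at E13.5 (embryonic day), with 1 library each for RBBP7, RBBP4, CHD4, MBD3, HDAC1 and HDAC2, and RBBP7 and RBBP4 were both paired with input 3. Chromatin was fixed with 5 mM DSG and 1% PFA, which holds proteins that reach DNA through other proteins as well as those that touch it. ATAC-seq was done at E12.5 on CD1 embryos, Dlx1/2 KO (labelled Dlx1/2KO in titles, -/- in the design) and WT, with 3 embryos per genotype and fraction combined by the authors into each list of regions that differed. The FTneg fraction held cells of the subventricular and mantle zones and the FTpos fraction cells of the ventricular zone. For the CHD4, HDAC1 and HDAC2 samples the attached list carries the name of another subunit of the 3, so these are named by sample label. The labels do not say how many embryos were pooled for ChIP or from which cells the signal came, so binding in few cells and weak binding in many cannot be told apart. No list had a replicate, so no test over samples was possible. The intervals on shares below cover counting error over regions only.

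RBBP7, also called RbAp46, and its close relative RBBP4, also called RbAp48, are WD-repeat proteins that bind histones. Both are core subunits of NuRD, which joins the remodelling ATPase CHD4 to the deacetylases HDAC1 and HDAC2 and the methyl-CpG-domain protein MBD3. They also belong to the SIN3 deacetylase complex and to Polycomb repressive complex PRC2, and RBBP7 to the HAT1 acetyltransferase complex, so a place with RBBP7 need not hold NuRD. In the ganglionic eminences the homeodomain factors DLX1 and DLX2 direct progenitors to GABAergic neurons.

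RBBP7-alone regions overlapped few promoters, and those promoters were mostly poor in CpG. The rule left out regions with a peak of another list, and promoters under no merged region were poorer in CpG than all promoters. Both traits are thus tied to the rule and are given as a description. Of 20418 start sites of protein-coding genes in the RefSeq promoter table (GRCm38.p6, the assembly of mm10), 32 start sites of 30 genes had an RBBP7-alone region in the window reaching from 250 bases before the start to 50 after it. The sequences below show where CpGs lie in such promoters. They are the 250 bases before the start, written 5′ to 3′ on the strand of the gene, with each CpG in capitals. Myh8, Aldoc, Krtap14 and Slc15a2 carried the 4 RBBP7-alone regions of highest fold enrichment on a promoter, and Neurod6 and Sox6 were the genes of the cortical neuron and GABAergic lists with an RBBP7-alone region there. Dct and Alg5 had the RBBP7-shared regions of highest fold enrichment whose RBBP7 summit lay in the window.
Myh8, chr11:67276874-67277123, plus strand: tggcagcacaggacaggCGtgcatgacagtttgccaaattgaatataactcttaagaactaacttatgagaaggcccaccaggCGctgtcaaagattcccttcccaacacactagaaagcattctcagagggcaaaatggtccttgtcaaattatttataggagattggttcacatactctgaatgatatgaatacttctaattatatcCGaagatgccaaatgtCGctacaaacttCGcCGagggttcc
Aldoc, chr11:78323948-78324197, plus strand: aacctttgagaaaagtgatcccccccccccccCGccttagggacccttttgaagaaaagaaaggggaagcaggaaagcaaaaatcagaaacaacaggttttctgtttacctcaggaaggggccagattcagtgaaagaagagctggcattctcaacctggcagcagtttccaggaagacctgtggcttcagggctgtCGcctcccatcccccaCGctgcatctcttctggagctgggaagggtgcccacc
Krtap14, chr16:88826146-88826395, minus strand: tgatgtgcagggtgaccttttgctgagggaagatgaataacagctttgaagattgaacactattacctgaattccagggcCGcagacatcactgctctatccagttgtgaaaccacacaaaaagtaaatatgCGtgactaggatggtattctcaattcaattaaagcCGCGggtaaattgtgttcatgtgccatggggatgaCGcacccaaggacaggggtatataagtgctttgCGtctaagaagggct
Slc15a2, chr16:36784963-36785212, minus strand: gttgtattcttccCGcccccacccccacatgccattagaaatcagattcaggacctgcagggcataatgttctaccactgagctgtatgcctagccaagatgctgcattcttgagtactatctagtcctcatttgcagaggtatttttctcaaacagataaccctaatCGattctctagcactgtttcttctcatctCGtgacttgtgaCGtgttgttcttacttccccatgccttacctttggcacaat
Neurod6, chr6:55681264-55681513, minus strand: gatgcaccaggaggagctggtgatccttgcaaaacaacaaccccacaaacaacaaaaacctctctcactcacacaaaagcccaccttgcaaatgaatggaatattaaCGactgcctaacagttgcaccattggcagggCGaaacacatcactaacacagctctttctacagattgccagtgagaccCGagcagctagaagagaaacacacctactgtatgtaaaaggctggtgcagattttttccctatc
Sox6, chr7:115824711-115824960, minus strand: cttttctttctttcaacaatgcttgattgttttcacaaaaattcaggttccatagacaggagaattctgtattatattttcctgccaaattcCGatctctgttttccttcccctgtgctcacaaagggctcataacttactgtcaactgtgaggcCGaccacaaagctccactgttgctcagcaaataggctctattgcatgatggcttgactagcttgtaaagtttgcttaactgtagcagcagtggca
Dct, chr14:118052247-118052496, minus strand: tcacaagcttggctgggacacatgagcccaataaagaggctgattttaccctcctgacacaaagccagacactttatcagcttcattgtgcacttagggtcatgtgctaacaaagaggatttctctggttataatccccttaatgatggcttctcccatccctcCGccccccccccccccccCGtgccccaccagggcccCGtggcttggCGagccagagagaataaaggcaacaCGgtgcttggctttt
Alg5, chr3:54735289-54735538, plus strand: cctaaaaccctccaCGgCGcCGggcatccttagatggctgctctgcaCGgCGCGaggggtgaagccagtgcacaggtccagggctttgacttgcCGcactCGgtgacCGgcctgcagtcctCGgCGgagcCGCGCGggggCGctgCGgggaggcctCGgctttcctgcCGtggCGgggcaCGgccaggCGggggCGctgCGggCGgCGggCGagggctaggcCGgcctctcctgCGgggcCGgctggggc

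Myh8 encodes the perinatal skeletal myosin heavy chain, Aldoc the brain aldolase, Krtap14 a hair keratin-associated protein, Slc15a2 a peptide transporter, Neurod6 a basic helix-loop-helix factor of cortical projection neurons and Sox6 an SRY-related factor of interneurons. Their printed stretches held 6 CpGs for Myh8, 3 for Aldoc, 6 for Krtap14, 4 for Slc15a2, 3 for Neurod6 and 2 for Sox6. Of the RBBP7-shared pair, Dct, a melanin synthesis enzyme gene, held 5 and Alg5, a gene of protein glycosylation, held 29. The Dct region was thus as CpG-poor as the RBBP7-alone examples and the Alg5 region was not. The RBBP7 summit lay 12 bp from the start of Aldoc and 40 bp from that of Neurod6, but 266 bp from that of Myh8 and 318 bp from that of Krtap14. In 11 of the 32 cases it lay within 100 bp.

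Over the whole set, the ratio of observed to expected CpG in the 300-base window had a median of 0.356 (quartiles 0.274 and 0.554) for the 32 promoters under RBBP7-alone regions and 0.806 (0.652 and 0.934) for the 2479 under RBBP7-shared regions. The median over all promoters was 0.589, and over the 9419 promoters under no merged region it was 0.229. A ratio of at least 0.6 was found in 7 of 32 promoters under RBBP7-alone regions (21.9%, 11.0 to 38.8%), in 81.4% of those under RBBP7-shared regions (79.8 to 82.8%) and in 49.2% of all promoters. Counted once per gene, by the median over its start sites, it was 7 of 30 genes (23.3%, 11.8 to 40.9%) under RBBP7-alone regions and 82.5% under RBBP7-shared regions. GC content had a median of 53.2% under RBBP7-alone regions and 65.3% under RBBP7-shared regions, against 57.0% over all promoters. With the summit itself in the window, the CpG ratio had a median of 0.369 for 17 promoters with an RBBP7-alone summit and 0.82 for 831 with an RBBP7-shared summit.

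**Figure D1:**
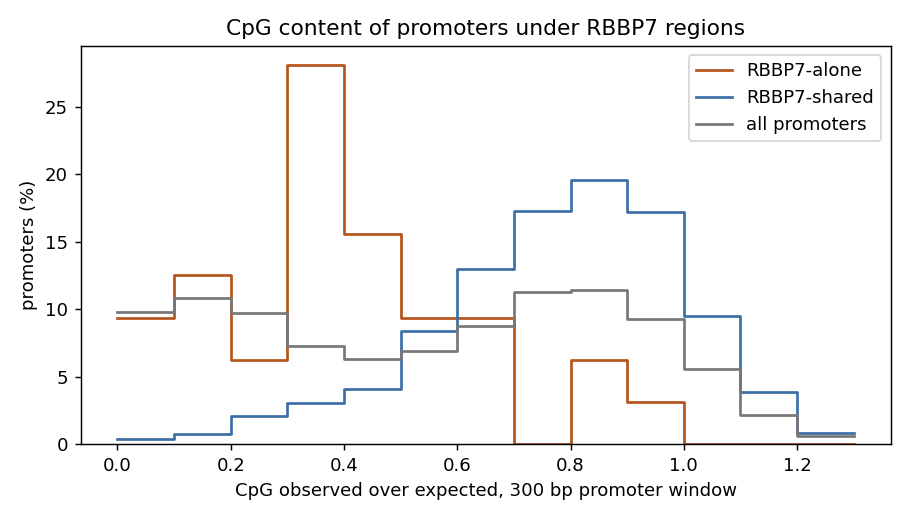
Percentage of promoters (y axis) by CpG ratio, observed over expected, of the 300-base window (x axis, steps of 0.1), for 32 promoters under RBBP7-alone regions, 2479 under RBBP7-shared regions and all 20418. The RBBP7-alone promoters lie mostly below 0.6, while 81.4% of the RBBP7-shared promoters lie at 0.6 or above. Values above 1.3 were drawn in the last step.

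Short motifs were searched in the same windows on both strands and counted once per gene, since start sites of a gene can share sequence (those of Fam118a lie under the same region). GGGCGG, the core of the GC box, was in 10 of 30 genes under RBBP7-alone regions (33.3%, 19.2 to 51.2%), in 76.3% of 2118 genes under RBBP7-shared regions and in 50.9% of all 16783. TAATTA, a core that many homeodomain proteins recognise, was in 4 of the 30 (13.3%, 5.31 to 29.7%), in 2.22% of genes under RBBP7-shared regions (1.67 to 2.94%) and in 5.27% of all. TGACTCA, the AP-1 site, was in 3 of 30 (10.0%, 3.46 to 25.6%), in 2.88% and in 5.50% of the same sets. CCAAT, bound by NF-Y, was in 33.3%, 42.5% and 42.7%, and GGAA, the core of ETS sites, in 96.7%, 93.2% and 96.3%. CAGCTG was in 10.0%, 16.2% and 17.7%, and CACGTG in 3.33%, 10.4% and 9.19%, both being E-boxes of basic helix-loop-helix proteins. The sets also differ in GC content, as given above, and its part in these shares was not tested. With 30 genes the intervals are wide, and that of TAATTA begins at 5.31%, next to the 5.27% of all genes. In the Myh8 window both TAATTA and CCAAT were present, in that of Slc15a2 GGGCGG, and in that of Neurod6 CCAAT.

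In the RBBP7 list itself, RBBP7-alone regions were smaller and narrower than RBBP7-shared regions, with a wide overlap of values. The fold enrichment at the summit, a ratio from the authors' peak caller, ran over RBBP7-alone regions from 3.07 to 20.7 with a median of 6.20, and over RBBP7-shared regions from 3.06 to 50.7 with a median of 6.43. The quartiles were 5.44 and 7.32 in RBBP7-alone regions and 5.37 and 8.14 in RBBP7-shared regions. The number of fragments piled up at the summit, solved from the deposited fold enrichment and p-value, had a median of 16 in RBBP7-alone regions (10 to 54) and 19 in RBBP7-shared regions (10 to 138). The median width was 386 bp in RBBP7-alone regions and 914 bp in RBBP7-shared regions, which also take in the peaks of other lists. The local background was at the lowest value of the list, 1.46 fragments, in 32.9% of RBBP7-alone regions (31.6 to 34.2%) and in 13.9% of RBBP7-shared regions (13.2 to 14.6%). RBBP7-alone regions covered 2160789 bp in all, and RBBP7-shared regions covered 11502358 bp.

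The share of RBBP7 regions held by RBBP7 alone was lower in every higher class of summit pileup. It was 52.8% of regions with at most 12 fragments (49.2 to 56.4%), 47.7% with 13 to 15, 38.0% with 16 to 18 and 31.6% with 19 to 21. It was 23.6% with 22 to 25, 18.0% with 26 to 30, 11.9% with 31 to 40 and 5.84% with 41 to 60 (3.63 to 9.27%). None of the 28 regions with 61 to 138 fragments was RBBP7-alone. A fold enrichment of at least 10 was reached by 231 RBBP7-alone and 1154 RBBP7-shared regions. Of the 100 RBBP7 regions of highest fold enrichment, 7 were RBBP7-alone, the first at rank 22.

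**Figure D2:**
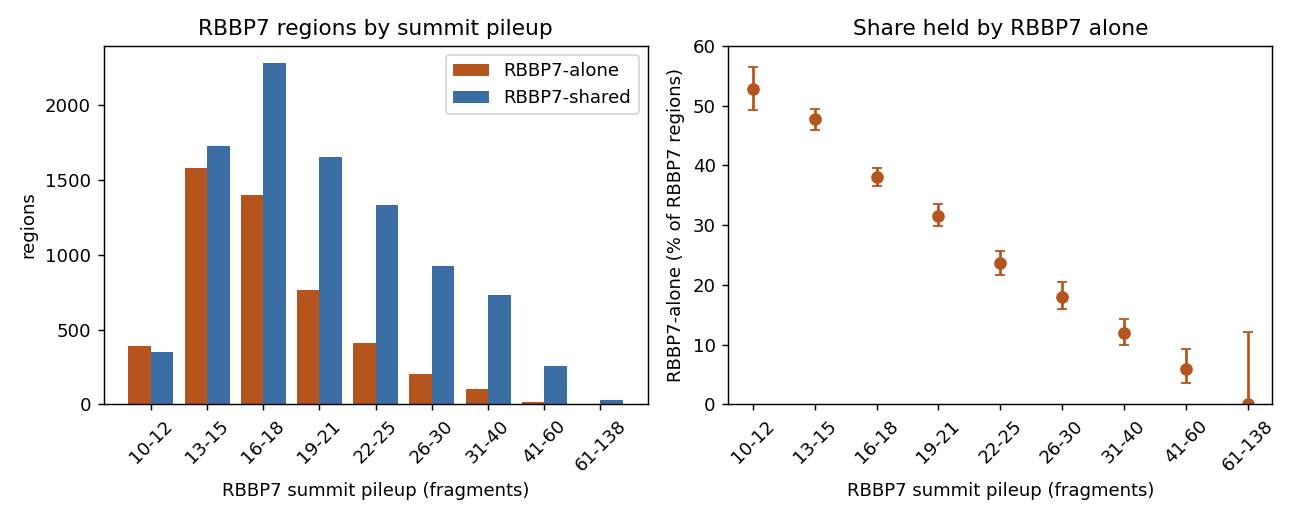
Left, number of RBBP7-alone and RBBP7-shared regions (y axis) by RBBP7 summit pileup in fragments (x axis). Right, RBBP7-alone regions as a percentage of all RBBP7 regions in each class, with Wilson 95% intervals; the share is 52.8% in the lowest class and 0% of 28 regions in the highest.

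The rule sets apart regions that miss or touch a peak of another list by a few bases. Just inside it, the region near Hes1 lay 3 bp from a peak of another list, that in Ahdc1 4 bp, and those near Sox13, Zfp536 and Gab1 7 bp. Just outside it, the region in Tfeb shared 1 bp with an RBBP4 peak, and those near Dcdc2c, Cntn3, Nebl and Dnah5 shared 5, 8, 11 and 12 bp. Another list came within 50 bp of 30 RBBP7-alone regions, and 21 RBBP7-shared regions had at most 50 bp in common with another list. Most RBBP7-alone regions were far from both limits. The distance to the nearest peak of another list had a median of 20152 bp (quartiles 5624 and 51590) and reached 806572 bp. It was within 1 kb for 8.42% of RBBP7-alone regions, within 10 kb for 34.4% and within 100 kb for 88.3%.

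None of the 15 RBBP7-alone regions of highest fold enrichment lay within 1 kb of a gene end. Of all RBBP7-alone regions 2.38% did, so finding none among 15 is near that share. The first by fold enrichment was inside Wwp1, a HECT ubiquitin ligase gene (chr4:19677152-19677959, mm10), with 54 fragments at the summit and a fold enrichment of 20.7. Its nearest peak of another list was 30.2 kb away. Cntn6, which encodes a contactin, an adhesion protein of neurons, was the nearest gene of a pair of them, at fold enrichments of 18.7 and 17.2. The first of these (chr6:104402099-104403559) had 45 fragments and lay 90.1 kb from the gene, and the second (chr6:104989845-104991691) had 43 and lay 127 kb from it. A region inside Dgkb, a diacylglycerol kinase gene (chr12:37988030-37988917), had a fold enrichment of 17.9 with 48 fragments, 106 kb from any other list. A region 444 kb from Nr4a2, which encodes the orphan nuclear receptor NURR1 (chr2:56661331-56663417), also had 48 fragments and, at 2087 bp, was the widest of all 4867.

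The remaining 10 of the 15 regions of highest fold enrichment had values of 14.2 to 18.0. Their nearest genes were Aldoart1, Mterf1b, Tll2, Ccdc3, Rap2b, Mitf, Kirrel3, Cadm2, Hace1 and Shisa6. Kirrel3 and Cadm2 encode immunoglobulin-superfamily adhesion proteins, Shisa6 an auxiliary protein of AMPA receptors, Tll2 a tolloid-like protease and Mitf the melanocyte transcription factor. The regions of Tll2 and Kirrel3 lay inside the gene, and that of Hace1 lay 1653 kb from it. Some were close to other lists, as near Mitf at 1.29 kb and Rap2b at 1.88 kb, and others were remote, as near Mterf1b at 184 kb. None of the 15 overlapped a region whose accessibility differed between Dlx1/2 KO and WT cells. Of all RBBP7-alone regions 0.349% did, so a count of 0 among 15 is near that share.

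The rule did not use gene positions, but it left out regions with a peak of another list, which were often at gene ends. The share of regions at a gene end was lower in RBBP7-alone regions than in the other classes. It is tied to the rule in this way and is given as a description. Of 4867 RBBP7-alone regions, 116 lay no farther than 1 kb from one of the 2 ends of a protein-coding gene (2.38%, 1.99 to 2.85%), whereas the share was 26.9% of RBBP7-shared regions (26.0 to 27.8%) and 33.7% of all merged regions. Without the RBBP4 list it was 5.82% of RBBP7-alone and 34.1% of RBBP7-shared regions, and with the ends of all annotated genes 7.54% and 34.1%. RBBP7 regions with 1 other list were at a gene end in 9.36% of cases, those with 2 in 18.4%, with 3 in 32.6%, with 4 in 50.6% and with all 5 in 40.9%. Regions held by RBBP4 and RBBP7 together and no other list were at a gene end in 9.57% of cases. Regions held by the RBBP4 list alone, 9144 in number, were so in 19.0% (18.2 to 19.8%). Among regions held by a single list, the share was 55.7% for the CHD4-labelled list, 29.2% for the HDAC1-labelled list, 27.6% for the HDAC2-labelled list and 13.9% for MBD3.

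RBBP7-shared regions are wider, which makes an overlap with a fixed window more frequent. Measured by the RBBP7 summit alone, the share was 2.01% of RBBP7-alone regions (1.66 to 2.45%) and 22.7% of RBBP7-shared regions (21.8 to 23.5%). At equal pileup the intervals of the 2 classes did not overlap up to 40 fragments. With 13 to 15 fragments, 2.59% of RBBP7-alone regions (1.92 to 3.50%) and 37.5% of RBBP7-shared regions (35.2 to 39.8%) were at a gene end. With 26 to 30 fragments, the shares were 2.45% (1.05 to 5.61%) and 10.9% (9.04 to 13.1%). Above 40 fragments only 16 RBBP7-alone regions were left, none at a gene end, and the interval (0 to 19.4%) takes in the 3.10% of RBBP7-shared regions. Start sites gave 1.17% of RBBP7-alone regions and 22.9% of RBBP7-shared regions within 1 kb, against 29.0% of all merged regions.

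**Figure D3:**
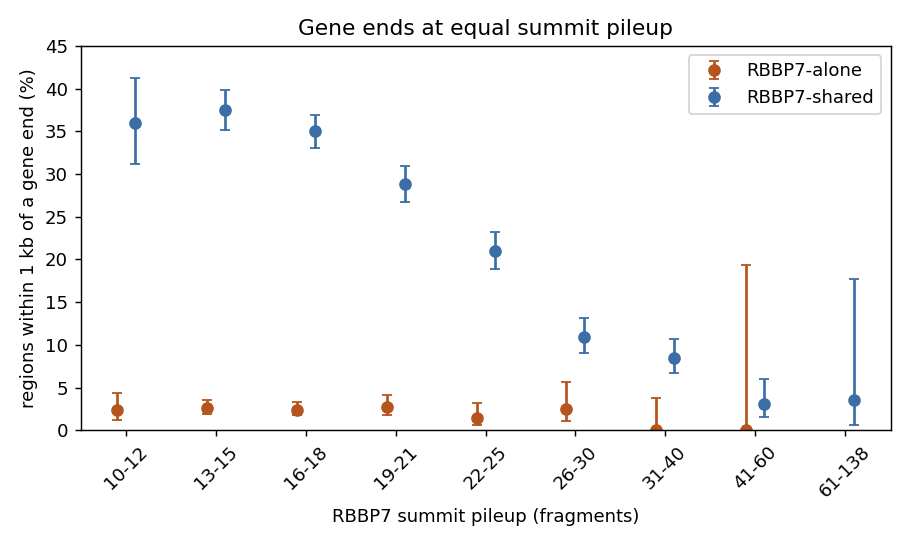
Percentage of regions within 1 kb of a gene end (y axis) by RBBP7 summit pileup in fragments (x axis), for RBBP7-alone and RBBP7-shared regions with Wilson 95% intervals. RBBP7-alone regions stay between 0 and 2.74% in every class, and RBBP7-shared regions lie between 37.5% and 3.10%, lower in the classes of high pileup.

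Counted over all regions of a class, RBBP7-alone regions were more often outside genes and far from them than RBBP7-shared regions. The difference from regions held by RBBP4 and RBBP7 only was smaller. Regions at gene ends, more frequent among RBBP7-shared regions, are in these counts, and their part was not tested. A gene body was overlapped by 48.2% of RBBP7-alone regions (46.8 to 49.6%), by 62.0% of RBBP7-shared regions and by 65.1% of all merged regions. The share was 51.3% of regions held by RBBP4 and RBBP7 only (49.5 to 53.1%), an interval that overlaps that of RBBP7-alone regions. It was 54.4% of RBBP4-alone regions. Measured from the edge of the region, 24.7% of RBBP7-alone regions (23.5 to 25.9%) lay over 100 kb from any protein-coding gene. The same held for 17.0% of RBBP7-shared regions (16.2 to 17.8%) and 17.1% of RBBP4-alone regions. Among regions held by RBBP4 and RBBP7 only it was 20.3% (18.9 to 21.8%). Introns and exons could not be told apart with the annotation used. None of the 2743 entries of the RefSeq miRNA table overlapped an RBBP7-alone region. These regions covered only 2160789 bp and the overlap was not counted for other classes, so no comparison is drawn from it.

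The 116 regions at gene ends had fold enrichments from 3.69 to 11.4, beside 3.07 to 20.7 over all RBBP7-alone regions. The first lay by BC048507 (chr13:67864696-67865245, 27 fragments, fold enrichment 11.4). The next was in Dclk2, a doublecortin-like kinase gene (chr3:86787057-86787607), with 30 fragments and 10.5. A region within 1 kb of the start of Acot10, a mitochondrial thioesterase gene that lies inside Cdh12 (chr15:20667350-20667813), had 24 fragments and 10.1. The other 7 of the first 10 lay at ends of Ccdc50, Cckar, Itprid1, Gtdc1, Myh8, Necab3 and Tpbg, with fold enrichments of 8.08 to 9.48. Cckar encodes a cholecystokinin receptor and Tpbg a membrane glycoprotein that inhibits Wnt signalling. Among these 10, the distance to the nearest other list ran from 1.60 kb at Tpbg to 177 kb at Myh8.

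An RBBP7-alone region lay within 1 kb of an end of 127 of 20953 genes (0.606%), and 7 of these genes were in the gene lists. Hes1, a Notch-induced repressor of neurogenesis, had a region of 18 fragments 990 bp from the gene (chr16:30068564-30068978), next to a peak of another list 3 bp away. Hes6, a relative that counteracts HES1, had one of 15 fragments that also lay at an end of the neighbouring clock gene Per2. Neurod6 had an RBBP7-alone region of 14 fragments at its start and one of 22 fragments at its other end (chr6:55678530-55679081), and another of 31 fragments 23.1 kb away. Cntn5, a contactin gene, and Sema6a, a transmembrane semaphorin gene, had regions of 12 and 15 fragments, both within 0.5 kb of another list. Zfp712 and Kcnj9, a G-protein-gated potassium channel gene, had regions of 12 fragments. Of these genes, Hes1, Hes6 and Neurod6 also had an RBBP7-shared region at an end. No gene of NuRD subunits (of 15), of other complexes with RBBP7 (of 22) or of the GABAergic lineage (of 43) had an RBBP7-alone region at an end, while 7, 6 and 26 of them had an RBBP7-shared region there. Over all genes 2731 of 20953 (13.0%) had an RBBP7-shared region at an end. With 0.606% of all genes as the background, a count of 0 among so few genes is near it. No microglial gene (of 8) had either. The GABAergic lineage gene Sox6 had an RBBP7-alone region of 18 fragments (chr7:115824766-115825374, fold enrichment 6.43) at a start site inside the gene body, which is not a gene end.

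By nearest gene, RBBP7-alone regions were spread over many genes. They had 2620 nearest genes of 20953, so that 87.5% of protein-coding genes were nearest to none, and 1599 of these genes had only 1 region. Tenm2, which encodes a teneurin, a synaptic adhesion protein, had the highest number with 22, 14 of them inside the gene of 1230 kb. Its fold enrichments ran from 4.65 to 11.8, and 13 RBBP7-shared regions had the same nearest gene. Tenm3, another teneurin gene, had 16, and Auts2, a gene of neurodevelopment whose product joins a Polycomb complex, had 15. Robo2, the receptor of the SLIT guidance cues, had 14, and Nfib, a transcription factor of forebrain development, had 13, of which 7 lay inside a gene of only 217 kb. Opcml and Pcdh9, of immunoglobulin and protocadherin adhesion proteins, had 12 each, and 5 genes had 11 each. These were Dok5, Frmd4a, the ephrin receptor gene Epha4, the zinc finger gene Zfp608 and Olfm4, of which Zfp608 had 1 inside the gene and Olfm4, of 22.8 kb, had none inside.

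Per length, the density of RBBP7-alone summits inside these genes was 11.4 per Mb in Tenm2, 10.8 per Mb in Auts2, 8.36 per Mb in Robo2 and 32.3 per Mb in Nfib, against 2.29 per Mb over all gene bodies together. These genes were named for their numbers of regions, so a density above that of all genes is a description of the choice. Within Tenm2, 4 regions lay in 2.62 kb (chr11:36072035-36074650). Runs of this kind, with gaps of at most 10 kb, were few. Of all RBBP7-alone regions, 4023 stood singly, 340 runs held 2, 44 held 3 and 8 held 4. The other 7 runs of 4 were nearest to Vegfc, Clybl, Ttc28, Pawr, Elp4, Tmem131l and Grik3 and spanned 5.83 to 19.0 kb. The distance from an RBBP7-alone region to the nearest other RBBP7-alone region, on either side, had a median of 89733 bp.

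Axon guidance and adhesion genes were the list with the highest share of nearest genes. Of its 51 genes, 46 were nearest to at least 1 RBBP7-alone region (90.2%), with 231 regions in all, while 87.5% of all genes were nearest to none. The genes of this list were long, with a median of 369 kb against 17.8 kb over all genes, and of the 984 genes of 200 kb or more 64.3% were nearest to one. Of the RBBP7 regions nearest to the list, 44.8% were RBBP7-alone, beside 42.1% for genes of 200 kb or more and 34.4% for all genes. Beyond those named above, Cntnap2, Epha3 and Tenm4 had 8 regions each and Unc5d, a netrin receptor gene, had 7. Gene length differs between the lists, and its part in the counts was not tested beyond this class of long genes.

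Of 43 GABAergic lineage genes, 24 (55.8%) were nearest to 89 RBBP7-alone regions. Sox6, a factor of interneuron maturation, had 10, the neuregulin receptor gene Erbb4 and Npas3 had 7 each, and Foxp2 and Zeb2 had 6 each. Of these, 6 lay inside Sox6, 7 inside Erbb4, 6 inside Npas3 and 5 inside Foxp2. None lay inside Zeb2, and the strongest of its regions was 1126 kb from it. Dlx6, a homeodomain gene of the DLX family, had 1 of 31 fragments at 118 kb, and Dlx2 had 2, the stronger of 16 fragments at 101 kb. RBBP7-alone regions were 32.7% of the RBBP7 regions nearest to these genes. They were 22.5% of those nearest to 27 ventricular zone progenitor genes, of which 12 had one, with Id4 at 8 and Sox2, Sox9 and Gli3 at 4 each. Inside Gli3 lay 3 of them, but none lay inside Id4, Sox2 or Sox9, whose strongest were 107, 184 and 548 kb away. Of 21 Notch pathway genes 8 had one (38.1%), led by the coactivator gene Maml2 with 4, and of 17 cortical glutamatergic genes 9 had one (52.9%), led by Neurod6 with 5. RBBP7-alone regions were 23.8% of the RBBP7 regions nearest to the Notch genes and 22.6% of those nearest to the cortical genes. The share was 34.4% over all genes, 26.0% for genes of 0 to 20 kb and 33.6% for genes of 20 to 200 kb. Median gene length was 5.55 kb in the progenitor list, 16.3 kb in the Notch list and 7.81 kb in the cortical list. In the GABAergic list it was 34.9 kb, and the part of length in these shares was not tested. Over all genes, 2620 of 20953 were nearest to at least 1. Chd3 was the NuRD subunit gene with one, of 22 fragments at 2.71 kb. Of 22 genes of other complexes with RBBP7, 4 had one, among them Eed and Aebp2 of PRC2 and Suds3 and Sap30 of the SIN3 complex.

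Overlap with chromatin that differed between Dlx1/2 KO and WT cells was rare. Of 4867 RBBP7-alone regions, 17 overlapped a region more accessible in Dlx1/2 KO FTneg cells (0.349%, 0.218 to 0.559%), whereas 303 of 9299 RBBP7-shared regions did (3.26%, 2.92 to 3.64%). Over all merged regions the share was 1.33%, and over RBBP4-alone regions it was 0.951% (0.772 to 1.17%). Regions held by RBBP4 and RBBP7 only had 1.56% (1.17 to 2.08%). RBBP7 regions with 1 other list had 1.54%, with 2 other lists 2.95%, with 3 3.85%, with 4 3.19% and with all 5 6.68%. The rule left out regions with a peak of another list, so the share is tied to the rule and is given as a description. The share in RBBP7-alone regions was 1.12% (0.769 to 1.62%) with a limit of 10 on −log10 q in all 6 lists, where it was 5.48% in RBBP7-shared regions and 1.70% (1.55 to 1.87%) in all merged regions. It was 0.821% without the RBBP4 list and 0.603% where sharing needed cover of 0.5 of the RBBP7 peak, with 3.96% and 3.06% in RBBP7-shared regions. With accessibility areas of at least 1000 it was 0.0822% in RBBP7-alone regions and 0.71% in RBBP7-shared regions. By the summit alone it was 0.308% of RBBP7-alone and 2.89% of RBBP7-shared regions. Seen from the accessibility list, 17 of 724 KO-higher FTneg regions held an RBBP7-alone region (2.35%) and 309 an RBBP7-shared one (42.7%). No RBBP7-alone region overlapped a KO-higher FTpos, WT-higher FTneg or WT-higher FTpos region, which allows a share of up to 0.0789% by the Wilson interval. Over all merged regions the shares were 0.00258% for KO-higher FTpos, 0.0927% (0.067 to 0.128%) for WT-higher FTneg and 0.0696% (0.0478 to 0.101%) for WT-higher FTpos. The limit lies above the first of these and within the intervals of the second and the third.

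At equal pileup, 0.316% of RBBP7-alone regions with 13 to 15 fragments (0.135 to 0.739%) and 1.44% of RBBP7-shared regions (0.980 to 2.12%) overlapped a KO-higher FTneg region. With 19 to 21 fragments, the shares were 0.653% (0.279 to 1.52%) and 2.78% (2.09 to 3.68%). The intervals overlapped with at most 12 fragments, at 0.258% (0.0455 to 1.45%) and 1.73% (0.795 to 3.72%), with 26 to 30, at 0.98% (0.269 to 3.50%) and 4.31% (3.18 to 5.82%), and with 41 to 60, at 0 of 16 (0 to 19.4%) and 13.6% (9.92 to 18.3%). Among RBBP7-shared regions the share reached 32.1% with 61 to 138 fragments, a class that held no RBBP7-alone region.

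**Figure D4:**
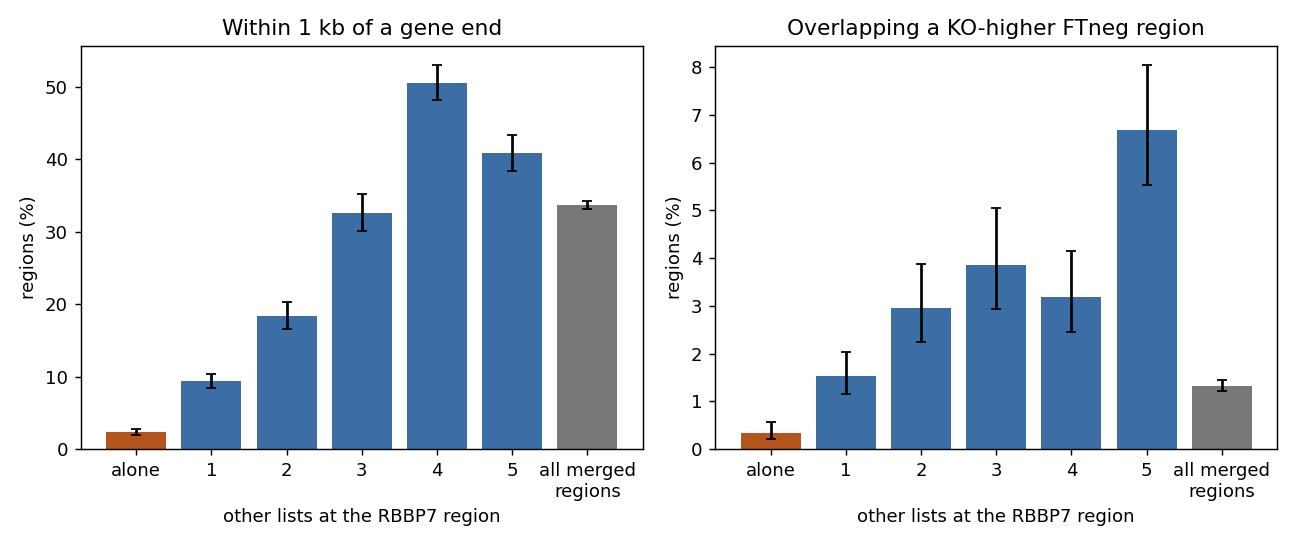
Percentage of RBBP7 regions (y axes) within 1 kb of a gene end (left) and overlapping a region more accessible in Dlx1/2 KO FTneg cells (right), by the number of other lists with a peak there (x axes), with Wilson 95% intervals and all 38820 merged regions last. RBBP7-alone regions have the lowest bar in both panels, at 2.38% and 0.349%.

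The 17 RBBP7-alone regions that overlapped a KO-higher FTneg region had fold enrichments of 4.22 to 8.54 and 12 to 27 fragments. None lay at a gene end. The first lay inside Tmtc2 (chr10:105423130-105423622), with 20 fragments, and shared 482 bp with its accessibility region. The next lay inside Foxp2, a forkhead factor of striatal neurons (chr6:15285106-15285598), with 21 fragments and 328 bp shared. Inside Sox6 (chr7:115868039-115868507) a region of 19 fragments, 556 bp from an RBBP4 peak, was covered by the accessible region over all its 469 bp. Inside Maml3, a Notch coactivator gene (chr3:51833184-51833507), a region of 23 fragments shared 304 bp. On the X chromosome a region of 15 fragments inside Tenm1, a teneurin gene (chrX:42540178-42540500), was covered whole and lay 178 kb from any other list.

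The region near Fzd9, which encodes a Wnt receptor, lay 3.19 kb from the gene, and that near Itpripl1 lay 1.60 kb from it with 27 fragments. Those nearest to Zfp608, Nxpe4, Pla2g4a, Atp23, Arntl and Stim2 lay 21.0 to 1139 kb from the gene, and that of Nhsl1 lay inside it. The last 3 by fold enrichment were nearest to Fech, Hao1 and Cdk15. The summit lay inside the accessible region in 15 of the 17, with Fzd9 and Arntl as the exceptions. None of the 17 KO-higher FTneg regions overlapped by them held a peak of another list. Their area, the authors' score, had a median of 717, beside 703 for all 724.

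Across chromosomes the RBBP7-alone share of RBBP7 regions was 28.6 to 39.7% on the 19 autosomes and 48.6% on the X chromosome (71 of 146, 40.7 to 56.7%). Over the autosomes together it was 34.2% (33.4 to 35.0%). Chromosomes 14, 15 and 16 had 39.3%, 39.0% and 39.7%, and chromosomes 13 and 17 had 30.4% and 28.6%. The rule itself used the lists behind these shares, so they are a description. In the RBBP4 list the X chromosome also had the highest share, with 43.8% of its regions held by RBBP4 alone, against 30.5 to 34.6% on the autosomes. The median pileup of RBBP7-alone regions was 15 fragments on the X chromosome and 16 or 17 on every autosome, and its part in the share was not tested.

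**Figure D5:**
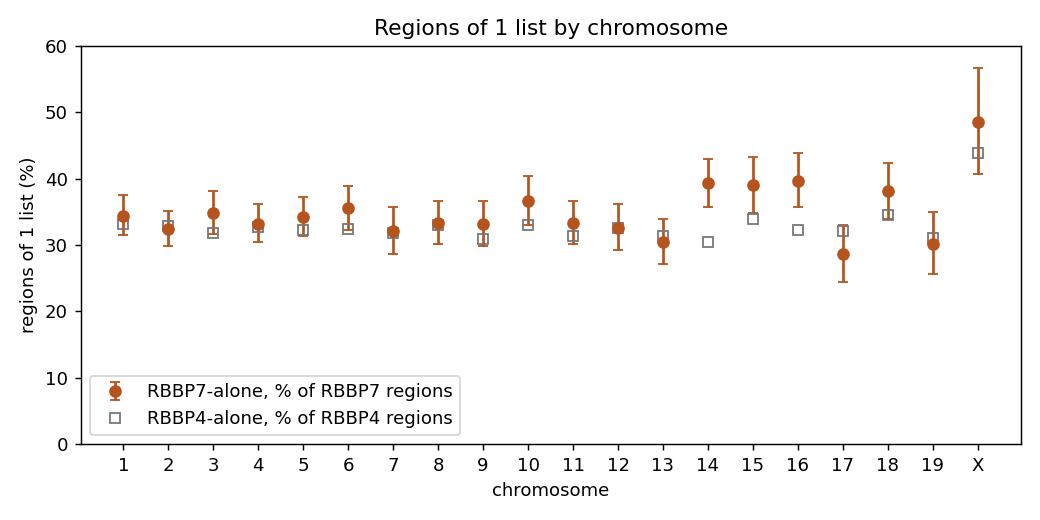
RBBP7-alone regions as a percentage of RBBP7 regions (filled circles, Wilson 95% intervals) and RBBP4-alone regions as a percentage of RBBP4 regions (open squares), on the y axis, by chromosome on the x axis. Both shares are highest on the X chromosome, at 48.6% for RBBP7 and 43.8% for RBBP4.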

How the data were processed

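The 6 ChIP peak lists and 4 accessibility lists were used as deposited by the authors. Per the submitters' processing notes, build mm10 was used with BWA, SAMtools 1.10, deepTools, MACS2 2.2.7.1 and Genrich, whose settings the notes do not give here. In each deposited ChIP list the fold enrichment is a ratio at the summit, and −log10 p and −log10 q come from the authors' caller. The deposited score of an accessibility region is its area, and all were at least 500. Read counts were not used, so the sequencing depth is unknown.

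Peaks were merged with an overlap of at least 1 bp. The summit pileup and local background were solved from the deposited fold enrichment and p-value, taking both as MACS2 defines them with 1 added to each. All 14918 RBBP7 peaks gave a whole number of fragments within 0.001 in −log10 p. The steps were checked on simulated data. Shares carry Wilson 95% intervals. Gene ends came from the RefSeq annotation of GRCm38.p6 (20953 protein-coding genes with a curated transcript), which gives no strand, and start sites from the RefSeq promoter table (16783 of these genes, none on chromosome 18). Nearest genes were taken from the summit. Python 3.11.15 with pandas 2.3.3, NumPy 2.4.6, SciPy 1.17.1 and matplotlib 3.10.9 was used. The regions, gene lists and tests were chosen with earlier results of these data known. Named are the 15 regions of highest fold enrichment, the 10 highest at gene ends and the regions overlapping a KO-higher FTneg region. Also named are the 10 genes with most regions, those tied with them and list genes with a region at an end. Other genes were named after their values were seen, as were added the promoter comparisons by summit and by gene and the values of other classes under each setting.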

Additional observations from a re-analysis of the deposited data

How the results depend on the processing

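Of 35 alternatives, 16 kept the value within the spread used for comparison (1.5 times for the number, the Wilson interval for shares) and 19 did not. The number of RBBP7-alone regions was 1570 with RBBP7 peaks of −log10 q of at least 10, 2418 with that limit on all 6 lists and 8157 without the RBBP4 list. Their share of RBBP7 regions was 27.0%, 41.5% and 56.4% under the same settings, 31.5% where no peak of another list lay within 1 kb, 36.7% where sharing needed another peak over at least 0.5 of the RBBP7 peak and 35.8% with the RBBP4 and RBBP7 lists only. The share at a gene end was 5.82% without the RBBP4 list, 2.86% with the RBBP4 and RBBP7 lists only, 1.42% within 500 bp, 8.63% within 5 kb, 7.54% with the ends of all annotated genes and 1.17% with start sites, an alternative added after seeing the data. The share overlapping a KO-higher FTneg region was 1.12% with the −log10 q limit on all 6 lists, 0.821% without the RBBP4 list, 0.603% with cover of 0.5 of the peak and 0.0822% with areas of at least 1000. The cause was not tested. Under the same settings RBBP7-shared regions were at a gene end in 34.1% without the RBBP4 list, 26.8% with those lists only, 25.2% within 500 bp, 34.2% within 5 kb, 34.1% with all annotated genes and 22.9% with start sites. A list without a replicate leaves no replicate to leave out. No paired analysis was possible because each ChIP target had 1 library and the embryos were combined in the accessibility lists. A region counts as RBBP7-alone when no other list passed its threshold there, so binding of other subunits below that threshold was not detectable.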

Other observations

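Other gene lists differed in how many of their genes were nearest to an RBBP7-alone region, beside 2620 of all 20953 genes. Of 48 glutamate and GABA receptor genes, 15 were nearest to at least 1 region (31.2%), led by the kainate receptor genes Grik3 with 6 and Grik2 with 5. Of 94 potassium channel genes 27 (28.7%) and of 40 calcium and sodium channel genes 9 (22.5%) were nearest to one. The median gene length was 160 kb for the receptors and 104 kb for the calcium and sodium channels, against 17.8 kb over all genes. Of 13 endothelial and mural genes 4 (30.8%) were nearest to 6 regions, of the 10 RBBP7 regions nearest to them, and of 13 oligodendrocyte and astrocyte genes 2 (15.4%) were nearest to 8. Of 31 fate factors of other tissues, 5 were nearest to an RBBP7-alone region (16.1%), and 18 had an RBBP7-shared region at an end (58.1%), beside 13.0% of all genes.

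Of 39 Hox genes 1 was nearest to an RBBP7-alone region (2.56%), and 21 had an RBBP7-shared region at an end (53.8%), beside the same 13.0% of all genes. None of the 63 replication-dependent histone genes, 10 housekeeping genes or 8 microglial genes was nearest to one. Over all genes 87.5% were nearest to none, and of genes of 0 to 20 kb 5.03% were nearest to one. A count of 0 among 10 or 8 genes is near these shares. The histone genes had a median length of 0.491 kb, and the part of length in these counts was not tested. Of 1461 olfactory and vomeronasal receptor genes 4 were nearest to an RBBP7-alone region, with 5 regions, and of 57 clustered protocadherin genes 1 was. Zinc finger genes of the Zfp family had 18 of 365 (4.93%).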
